A study of Mus musculus with 8 samples.

Results

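The cornea of a control mouse was described from 4 whole-cornea RNA libraries, out of 8 libraries in the series, taken alone and without comparison to the other genotype. The members were the libraries titled as GRflox controls, replicates 1, 3, 4 and 5. All 24918 entries of the table of log2 normalized values were ranked by their mean over these 4 libraries. The mice had the genotype GRloxP/loxP-PAX6+/+, which means that both copies of the glucocorticoid receptor gene carried loxP sites and that no Cre was present. They were males aged 3 months on a C57BL/6J/FVB background, and each library held RNA from a pool of 4 to 6 corneas. The loxP sites are shared with the other 4 libraries of the series, which also carry a Cre driven by the P0 promoter of Pax6 and are not used here, and no wild-type cornea without loxP sites is among the 8 libraries. The libraries are separate pools, so the standard deviation (SD) over the 4 measures the spread between pools and not between single mice. Values of single libraries are given below in the order of replicates 1, 3, 4 and 5.

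The cornea is the clear window at the front of the eye. Its outer face is a stratified epithelium whose cells are filled with keratin filaments and with soluble enzymes that absorb ultraviolet light, the corneal crystallins. Below it lies the stroma, a lattice of collagen fibrils spaced by small proteoglycans and kept by keratocytes, and the inner face is a single sheet of endothelium that pumps water out of the stroma. Healthy cornea has no blood vessels in its centre, holds few immune cells, and is densely supplied with sensory nerve endings.

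The deposited values ran from -3.36 to 20.20 on the log2 scale. Of 24918 entries, 13260 (53.2%) had a mean of at least 5, the level taken here as detected, and 5382 (21.6%) were listed at exactly 0 in all 4 libraries. A mean of at least 10 was reached by 5285 entries, a mean of at least 12 by 1274 and a mean of at least 15 by 54. Depth per library cannot be read from the table, which holds normalized values in place of counts. The number of entries of at least 5 lay between 13250 and 13269 in the single libraries. Genes of the Y chromosome were detected as the label of male mice requires, with Eif2s3y at 11.39 ± 0.0993 and Ddx3y at 11.25 ± 0.178, and Xist, the RNA of the inactive X chromosome, stood at 2.49 ± 0.0221 (SD, n = 4).

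Keratins and corneal crystallins led the ranking. Krt12, the keratin by which differentiated corneal epithelium is recognised (Entrez gene 268482, chromosome 11), had values of 20.200, 20.125, 20.004 and 20.094, the highest of any entry in each of the 4 libraries. Krt5, its partner keratin in stratified epithelium (Entrez gene 110308, chromosome 15), had 19.42, 19.39, 19.20 and 19.28, and Aldh3a1, an aldehyde dehydrogenase that is the main corneal crystallin of the mouse (Entrez gene 11670, chromosome 11), had 19.27, 19.25, 18.94 and 19.18. For each of the 3 genes, replicate 4 was the lowest library and replicate 1 the highest. Their means were 20.11 ± 0.0813, 19.32 ± 0.101 and 19.16 ± 0.152 (SD, n = 4).

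Next in rank came Gsto1, a glutathione transferase of the omega class, at 18.20 ± 0.157 and Emp1, an epithelial membrane protein, at 18.04 ± 0.0698. Tkt, transketolase of the pentose phosphate pathway and also a corneal crystallin, stood at 17.70 ± 0.147. A2m, the protease inhibitor alpha-2-macroglobulin, followed at 17.10 ± 0.0582, Aqp5, the water channel of the epithelium, at 17.00 ± 0.146, Col17a1, a collagen of the hemidesmosome, at 16.97 ± 0.0717, and Actn4, an actin cross-linker, at 16.93 ± 0.0849. Neighbours in this part of the order were not far apart for their spread, since Aqp5, Col17a1 and Actn4 differed by less than the SD of Aqp5. The plot of the 30 highest entries shows the same 3 genes set apart at the top and a dense field below.

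**Figure D1:**
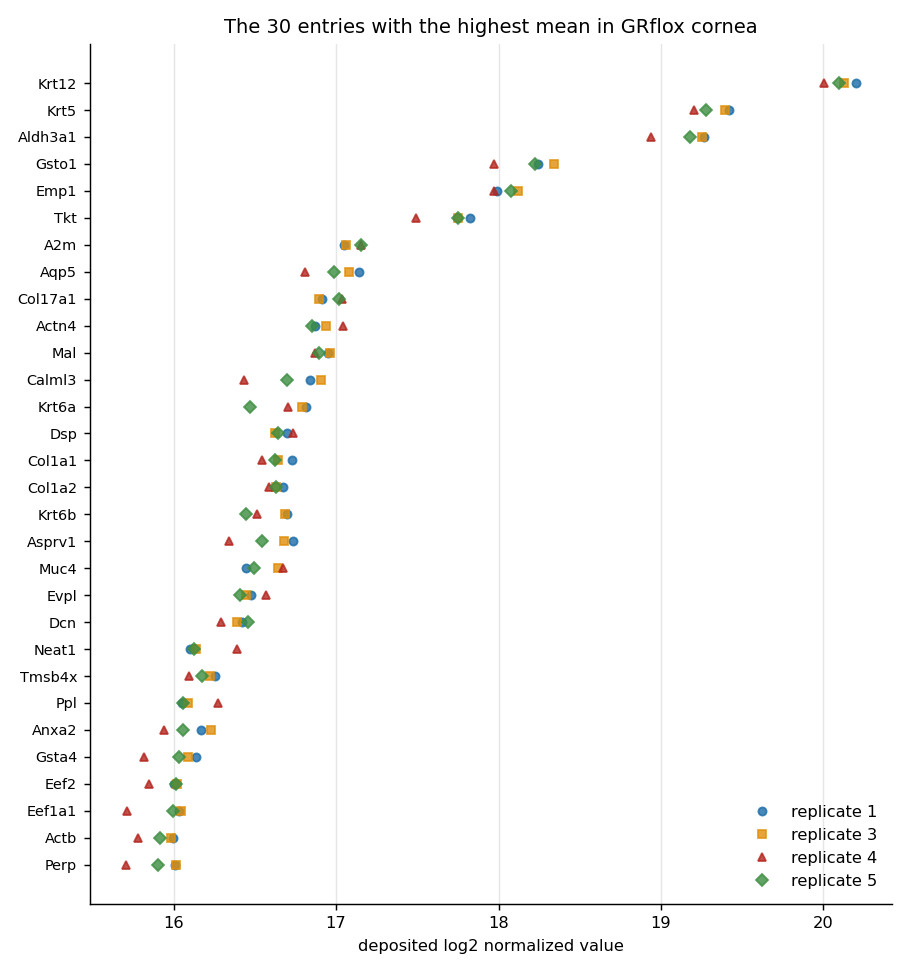
Deposited log2 normalized value (horizontal axis) of the 30 entries with the highest mean, 1 marker per GRflox library. Krt12 lay between 20.004 and 20.200 in the 4 libraries, above all other entries, and replicate 4 was often at an edge of its row.

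Because reads collect in proportion to transcript length, a level per length was computed by subtracting log2 of the transcript length in kb from the log2 value. Ranks, shares of signal and the order of genes within a group are given on the deposited scale, which favours long transcripts, unless a level per length is named. Median and longest annotated transcript were both used, and 24464 entries (98.2%) had a length. By the median length the order was Krt12 at 19.22, Gsto1 at 18.42, Aldh3a1 at 18.37 and Krt5 at 18.19 log2 units per kb, and by the longest transcript it was Krt12, Aldh3a1 at 18.37, Krt5 at 18.19 and Gsto1 at 17.95. The order of Gsto1, Aldh3a1 and Krt5 thus depended on the transcript length used, while Krt12 led on both scales. Of the 20 highest entries, 10 were the same on the deposited scale and on both length scales: Krt12, Aldh3a1, Krt5, Gsto1, Emp1, Tkt, Aqp5, Calml3, Mal and Actn4. Calml3, a calmodulin-like protein of epithelia, had values of 16.84, 16.91, 16.43 and 16.70, and Mal, a protein of apical membranes, had 16.95, 16.96, 16.87 and 16.89. Col1a1, the collagen I chain of the stroma, stood at 17.86 by the median and 14.07 by the longest transcript, and Muc4 at 16.22 and 13.07, so for these genes the level per length depends on which transcripts are made.

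The leading genes did not share one kind of core promoter. RefSeq promoter sequences of build GRCm38.p6 were at hand for 16440 of 20525 protein-coding genes of the table, and for 67 of the 100 highest. A TATA motif, the letters TATAAA on the coding strand between 40 and 15 bases before the start, was present for 8 of those 67 (11.9%), against 2.21% of the next 900 genes, 1.42% of the other detected genes, 5.67% of genes below 5 and 3.11% of all. The 8 genes were Krt12, Muc4, Plet1, Aqp3, Gm9573, Gm14446, Anxa1 and Ddx5. A GC motif, the letters GGGCGG on either strand within 250 bases before the start and counted with overlaps, was present for 53.7%, 72.9%, 63.3% and 21.9% of the same tiers and 47.9% of all genes. A match describes these letters only, and genes with several RefSeq starts counted as holding a motif when any start did.

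Of the 10 highest genes, 6 are shown to let the core sequences be compared, as the 60 bases just before the start, 5′ to 3′ on the coding strand in lower case, with both motifs in capitals and the GC motif on either strand. They lie at chr11:99422260-99422319 (minus strand) for Krt12, chr15:101712906-101712965 (minus) for Krt5, chr19:47854913-47854972 (plus) for Gsto1, chr14:30549071-30549130 (plus) for Tkt, chr15:99590968-99591027 (plus) for Aqp5 and chr7:28962333-28962392 (minus) for Actn4.
Krt12: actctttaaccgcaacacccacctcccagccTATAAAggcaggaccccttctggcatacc
Krt5: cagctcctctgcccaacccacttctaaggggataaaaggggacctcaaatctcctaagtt
Gsto1: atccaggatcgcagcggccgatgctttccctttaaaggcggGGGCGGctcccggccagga
Tkt: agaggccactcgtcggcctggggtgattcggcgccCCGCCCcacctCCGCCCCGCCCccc
Aqp5: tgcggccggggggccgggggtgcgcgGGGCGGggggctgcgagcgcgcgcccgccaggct
Actn4: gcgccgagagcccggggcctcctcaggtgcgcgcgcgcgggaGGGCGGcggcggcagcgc
Krt12 held the TATA motif and no GC motif in 250 bases, Krt5 held neither in these exact letters, and Tkt held 3 GC motifs in the 60 bases shown. Gsto1, Aqp5 and Actn4 held 1 GC motif each in the printed stretch, with 2 and 3 over 250 bases for Aqp5 and Actn4. Emp1, at both of its 2 starts, and Col17a1 are not shown and held neither motif. No promoter sequence was at hand for Aldh3a1 and A2m.

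Signal was concentrated in few genes. On the linear scale (2 to the power of the log2 value, entries listed at 0 counting as 0), the 2268 entries with a negative mean, which rank below those listed at 0, took 0.0031% and the 4008 entries between 0 and 5 took 0.136%. How zeros and negative values arose is not given in the sources used here, so no order is read among the values near 0. Krt12 alone took 4.07% ± 0.197 (SD, n = 4) of all signal, with 4.31%, 4.09%, 3.83% and 4.05% in the 4 libraries. Krt12, Krt5 and Aldh3a1 together took 8.55% ± 0.521, the 10 highest entries 13.3% ± 0.665, the 100 highest 27.7% ± 0.846 and the 1000 highest 55.2% ± 0.473. A total of 730 entries held 50% of the signal and 5517 held 90%. Replicate 4 had the lowest share in the 100 highest entries (26.6%, against 27.5% to 28.4% in the others). Chromosome 11, which carries Krt12 and Aldh3a1, took 14.4% of the signal, the largest share of any chromosome. It also held 1094 of the 13260 detected entries, more than any other chromosome. Without Krt12, Krt5 and Aldh3a1 it took 9.04% ± 0.0452. Protein-coding genes took 98.9% ± 0.0369 of the signal and long non-coding RNAs 0.827% ± 0.0389, led by Neat1, the scaffold of paraspeckles, at 16.19 ± 0.136, Plet1os at 14.54 ± 0.126 and Malat1 at 13.44 ± 0.138.

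**Figure D2:**
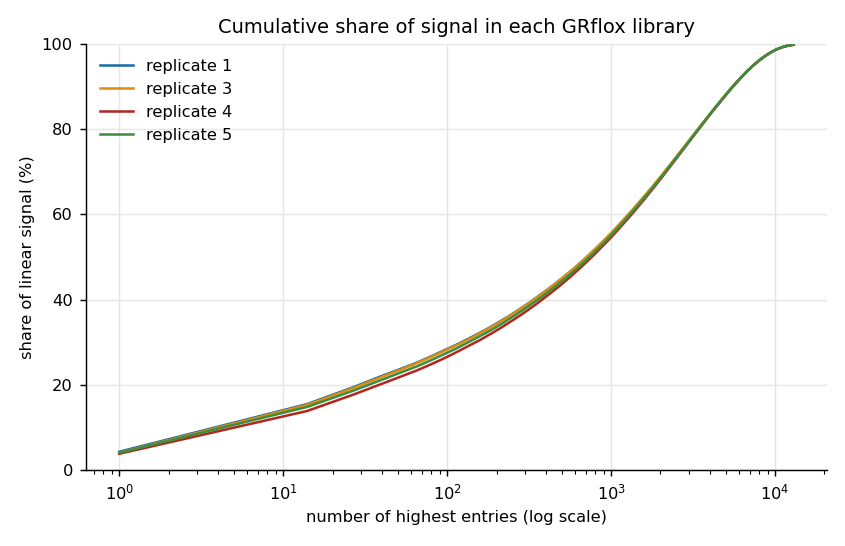
Cumulative share of linear signal in percent (vertical axis) against the number of highest entries on a log scale (horizontal axis), 1 line per GRflox library. The lines start between 3.83% and 4.31% for a single entry, and the line of replicate 4 runs lowest over the highest 100 entries.

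Lists of marker genes placed the layers of the cornea in the ranking, and genes of all 3 layers were detected. Of 18 genes of the corneal epithelium, 17 were detected, 13 of them were among the 100 highest entries, and the list took 11.5% ± 0.654 of the linear signal. All 21 stromal keratocyte genes were detected and took 1.91% ± 0.0336, and all 15 genes of the corneal endothelium were detected and took 0.371% ± 0.00516. The median level per length of detected members fell in the same order, 14.94, 12.45 and 10.77 log2 units by the median transcript and 14.05, 11.28 and 9.28 by the longest. In RNA of whole tissue, fewer cells of a type and less RNA per cell cannot be told apart, so these shares are shares of signal and not of cells. The lists are of different size and were chosen with the tissue in view. Of all 21205 protein-coding entries 12714 (59.96%) were detected. The detected counts of lists and families, here and below, are to be read beside this share and were not tested against it.

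**Figure D3:**
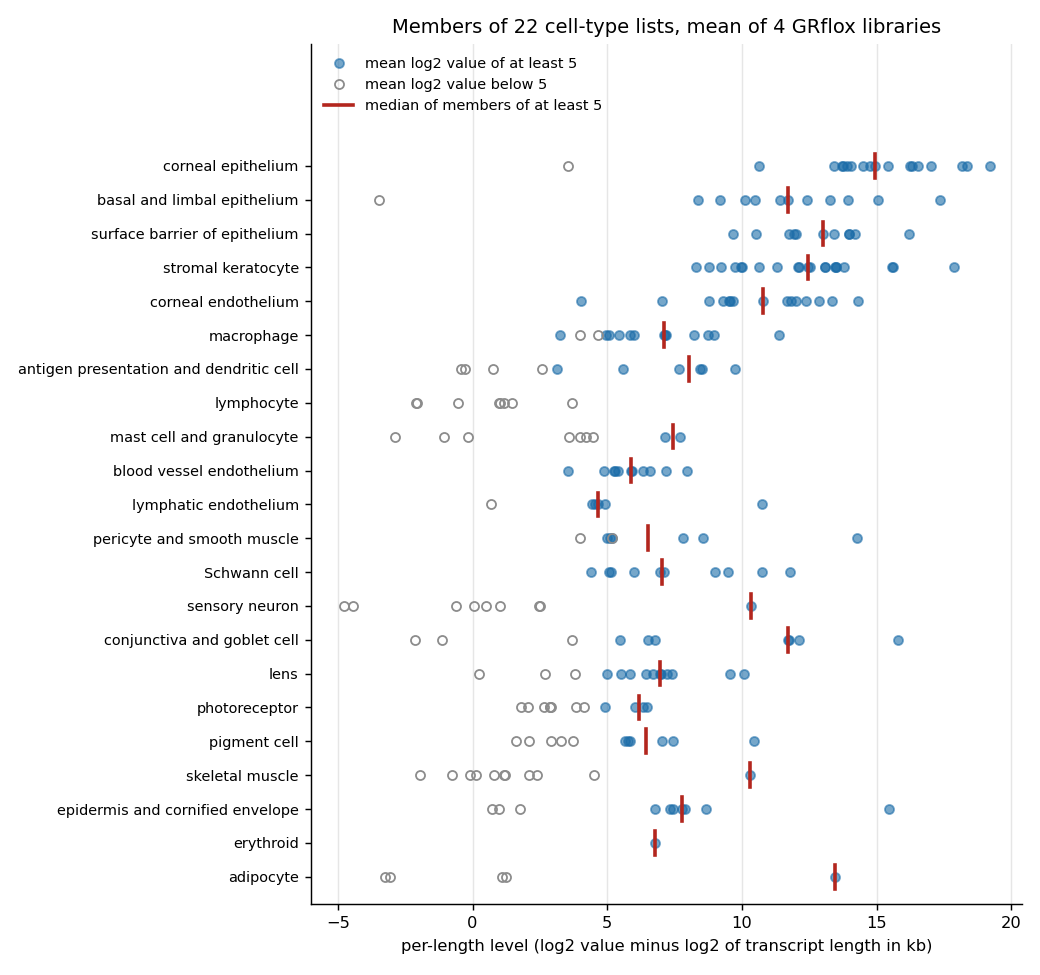
Level per length of each member (horizontal axis, log2 value minus log2 of the median transcript length in kb, mean of 4 GRflox libraries) for 22 cell-type lists. Filled points are detected members (log2 mean 5 or more), open points are members below 5, red bars are medians of the filled points, and members listed at 0 are not drawn.

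Keratins took 7.63% ± 0.384 of the linear signal, and of 52 keratin genes with an entry, 23 were detected, 27 were below 5 and 2 were listed at 0. Krt12 gave 53.4% of the keratin signal and the 3 highest keratins 89.4%. Behind Krt12 and Krt5 stood Krt6a at 16.69 ± 0.158 and Krt6b at 16.59 ± 0.125, keratins of fast-renewing and wounded epithelia. More than 50% of the 31-base windows of both transcripts occur in another gene (51.7% and 57.0%), so the division of reads between them is uncertain. Krt15, a keratin of basal and limbal cells, had values of 15.16, 15.61, 15.26 and 15.20, and Krt14, the basal partner of Krt5, had 13.89, 13.93, 13.94 and 13.36. Replicate 3 was the high library for Krt15 and replicate 5 the low one for Krt14. On the level per length Krt14 (13.28 and 13.02 by median and longest transcript) lay about 5 log2 units below Krt5 (18.19), and 29.1% of its windows are shared with other genes. Krt13 and Krt4, keratins of conjunctiva and other mucosal epithelia, stood at 14.83 ± 0.202 and 12.80 ± 0.363, with Krt4 values of 12.44, 13.23, 12.96 and 12.57 that were higher in replicates 3 and 4 than in replicates 1 and 5. Krt19 reached 11.83 and Krt7 11.22. Krt1 and Krt10, the pair of epidermal keratins, stood at 8.07 and 8.30, and Krt8 and Krt18, keratins of simple epithelia, at 7.73 and 7.04.

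The transcription factors that keep corneal epithelial identity were well above the detection level. Pax6, the master regulator of eye development, had values of 14.46, 14.52, 14.55 and 14.52 (14.51 ± 0.0363, rank 93), the only one of 9 Pax genes detected. Elf3 and Ehf, factors of the ETS family found in epithelia, stood at 14.84 ± 0.0331 and 14.21 ± 0.0875. Klf4, which promotes barrier formation, had 15.15, 15.18, 15.31 and 15.24 and gave 66.7% of the signal of the 17 Klf genes. Of these 17 genes 12 were detected, against 59.96% of all protein-coding entries. Klf5, a relative of basal cells, stood at 12.28 ± 0.0610. Trp63, the p63 factor of epithelial stem cells, stood at 13.29 ± 0.0701. The 4 libraries differed by less than 0.2 log2 units for each of these genes, Krt15 and Krt14 having been wider. Clu, a secreted chaperone, had 13.45 ± 0.0260, Slurp1, a secreted peptide of the ocular surface, 14.19 ± 0.146, and Upk1b, a uroplakin of apical membranes, 14.97 ± 0.134. Ly6d, a surface protein of stratified epithelia, was the only member of the epithelial list below 5, at 3.13 ± 0.0378.

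Adhesion genes of the epithelium had high deposited values, which for long transcripts overstate the level. Dsp, desmoplakin, which ties keratin filaments to desmosomes, had 16.68 ± 0.0517, and Jup and Perp, other desmosome components, had 15.89 ± 0.0403 and 15.91 ± 0.143. Of 9 desmosomal cadherin genes 7 were detected, led by Dsc2 at 15.48 ± 0.0883, Dsc3 at 14.87 ± 0.0834 and Dsg1a at 14.46 ± 0.0465, while Dsc1 stood at 5.44. Dsg1a and Dsg1b (9.80) share 41.4% and 60.2% of their windows with other genes, so their levels are uncertain. Among gap junction genes Gja1, connexin 43, had 13.88 ± 0.0288 and gave 69.9% of the connexin signal, followed by Gjb2 at 11.52. Evpl and Ppl, the plakins envoplakin and periplakin, stood at 16.48 ± 0.0706 and 16.12 ± 0.106. Per length Dsp ranked 178, Evpl 158 and Ppl 125 of the detected entries by the median transcript, and 73, 50 and 68 by the longest. Of 11 epidermis and cornified envelope genes with an entry, 7 were detected, near the 59.96% of all protein-coding entries. Krt6a gave 98.4% of the list's signal. The 3 members below 5 were the skin surface genes Lor, Sprr1b and Krtdap, at 1.54, 0.72 and 0.24, and 1 member was listed at 0. The detected members had a median level per length of 7.79 by the median and 7.35 by the longest transcript. Asprv1, a protease first known from skin, stood at 16.58 ± 0.177.

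The basement membrane and limbal genes were more uneven. Col17a1 values were 16.91, 16.89, 17.04 and 17.02, and the hemidesmosome integrins Itgb4 and Itga6 stood at 14.20 ± 0.0695 and 13.49 ± 0.141. All 11 laminin genes were detected, led by Lama3 at 12.75 ± 0.297, Lama5 at 12.63 ± 0.0847 and Lamb1 at 12.36 ± 0.0694, with Lama3 at 13.19 in replicate 4 and at most 12.70 in the others. Col7a1, the anchoring fibril collagen, stood at 12.47 ± 0.171. Of 12 basal and limbal genes 11 were detected. Among them Lrig1, a brake on growth factor signals in stem cells, stood at 13.43, Gpha2, a glycoprotein hormone subunit of limbal cells, at 8.64 and Abcg2, an efflux pump used as a side-population marker, at 9.53. Abcb5, an efflux pump used as a limbal stem cell marker, stood at -2.81, near the bottom of the table.

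Barrier and tear-film genes were led by membrane mucins. Muc4 had values of 16.44, 16.64, 16.67 and 16.50 and gave 73.2% of the mucin signal, and Muc20 and Muc15 stood at 14.74 ± 0.0749 and 12.63 ± 0.209. Muc1 reached 10.75 ± 0.179, Muc16 had no entry, and Muc5ac, the gel-forming mucin of goblet cells, stood at 1.94 ± 0.0236. Of 25 claudin genes, which seal tight junctions, 11 were detected, with Cldn4 at 12.86 ± 0.144, Cldn7 at 12.76 ± 0.0865 and Cldn23 at 12.02 ± 0.102 in front. Lypd2, a secreted relative of Slurp1, stood at 14.04 ± 0.122 and Defb1, a beta-defensin, at 10.42 ± 0.0362, the only detected one of 43 beta-defensin entries.

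Enzymes of aldehyde and oxidant defence took 3.69% ± 0.332 of the linear signal, and all 27 listed genes were detected. Aldh3a1 alone gave 95.4% of the signal of the 19 aldehyde dehydrogenase genes, followed at a distance by Aldh1a1 at 12.85 ± 0.145 and Aldh1a3 at 12.56 ± 0.0536. Gsto1 had values of 18.24, 18.34, 17.97 and 18.22 and gave 79.9% of the signal of 21 glutathione S-transferase genes. Gsta4, which clears the lipid aldehyde hydroxynonenal, had 16.14, 16.09, 15.82 and 16.04, and both transferases were lowest in replicate 4. Prdx6, a peroxiredoxin, stood at 13.94 ± 0.190. Hmox1, the inducible heme oxygenase, stood at 6.70, the lowest of the 27 on the deposited scale.

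Carbon metabolism was led by Tkt with values of 17.82, 17.75, 17.49 and 17.75. G6pdx, the entry enzyme of the pentose phosphate pathway, stood at 13.03 ± 0.0209, Taldo1, transaldolase, at 12.71 ± 0.145, and Pgd, a later dehydrogenase of the same pathway, at 12.39 ± 0.120. Per length Tkt (17.01 and 16.02 by median and longest transcript) lay above the other 20 genes of the list on both scales. The glycolytic genes Pkm and Aldoa stood at 13.31 ± 0.129 and 13.04 ± 0.165, whereas Gapdh stood at 7.84 ± 0.138, Pgk1 at 8.38 ± 0.114 and Eno1 at 2.81 ± 0.0437. Sequence shared with other genes covers 30.7% of the windows of Gapdh, 68.3% of Pgk1 and 77.2% of Eno1, but also 48.5% of Pkm. Its part in these values was not tested.

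A similar unevenness ran through the table and sets a limit on what its levels mean. Among protein-coding genes with at most 5% of 31-base windows in another gene (16088 genes), 68.2% were detected and 8.45% were listed at 0. Among the 93 genes with 95% to 100% shared windows, 1.08% were detected and 78.5% were listed at 0. The 77 cytoplasmic ribosomal protein genes, leaving out like-named relatives, ran from 0 to 14.87 with a median of 8.98, though their products are needed in equal numbers. Rpl4 stood at 14.87 and Rplp0 at 13.49, while Rps27 stood at 3.36, Rps29 at 3.72 and Rpl26 was listed at 0 in all 4 libraries. The 13 ribosomal genes with under 15% shared windows had a median of 10.40 and the 64 others 8.90, and Rpl30, with 9.82% shared, stood at 3.65. Of the 100 highest entries, 9 had at least 20% shared windows, among them Eef1a1 (73.9%) and Actb (35.3%). This is near the share over 20162 protein-coding genes. Of those, 1218 had 20% to 50% shared windows, 489 had 50% to 80%, 214 had 80% to 95% and 93 had more. How reads with several matches were treated is not given in the sources used here, and its part in these values was not tested.

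**Figure D4:**
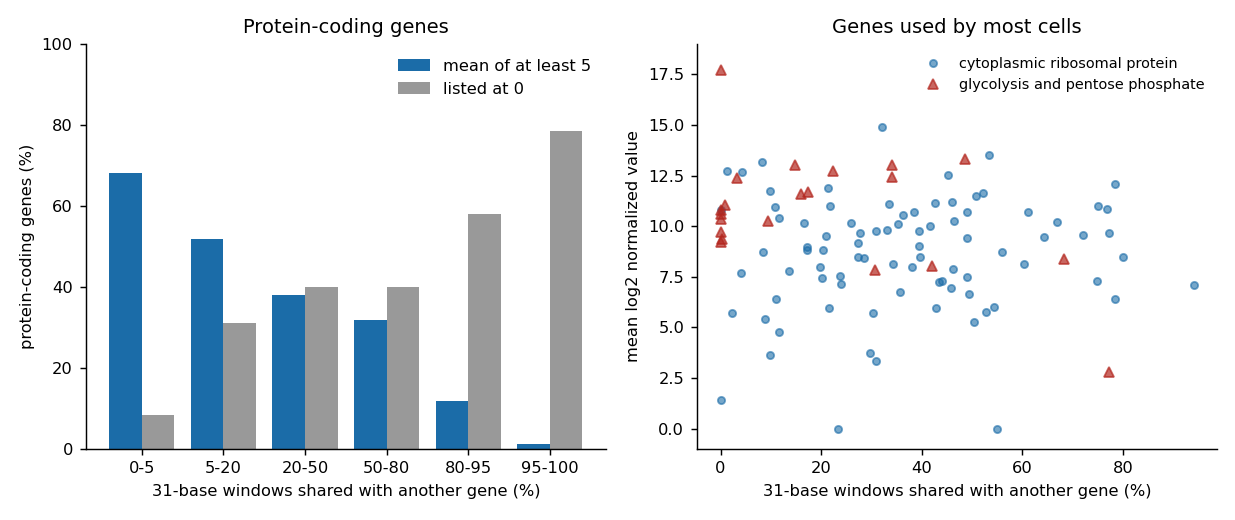
Left, percent of protein-coding genes (vertical axis) that were detected (log2 mean 5 or more) or listed at 0, by the percent of 31-base windows shared with another gene (horizontal axis). Right, mean log2 value of cytoplasmic ribosomal protein genes and of glycolysis and pentose phosphate genes against the same measure, where ribosomal genes spread from 0 to 14.87.

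Stromal genes were led by fibrillar collagen and decorin. Col1a1 had values of 16.73, 16.64, 16.54 and 16.63, Col1a2, the second chain of collagen I, had 16.68, 16.63, 16.59 and 16.63, and Dcn, decorin, a small proteoglycan that spaces collagen fibrils, had 16.42, 16.39, 16.29 and 16.46. The 4 libraries lay within 0.2 log2 units of each other for each of these genes. Of 44 collagen genes 34 were detected, and the family, of which the epithelial Col17a1 gave 24.8%, took 1.86% ± 0.0462 of the linear signal. The collagen VI chains Col6a1, Col6a3 and Col6a2 stood at 14.78 ± 0.0460, 14.56 ± 0.0697 and 14.31 ± 0.0430, Col12a1, which decorates fibrils, at 14.80 ± 0.0662, and the collagen V chains Col5a2 and Col5a1, which limit fibril width, at 13.83 ± 0.0818 and 13.56 ± 0.0775. Col3a1, the collagen of stretchable tissues such as skin, stood at 11.11 ± 0.146. Per length Col3a1 (11.55 and 8.63 by median and longest transcript) lay more than 4 log2 units below Col1a2 (15.61 and 14.21) on both scales.

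Small leucine-rich proteoglycans include the keratan sulfate proteoglycans that mark corneal stroma. Of 14 genes of this family 11 were detected and 3 were below 5. Kera, keratocan, had values of 14.68, 14.68, 14.58 and 14.77 (14.68 ± 0.0797, rank 81), and Lum, lumican, had 14.36, 14.38, 14.28 and 14.47 (14.37 ± 0.0780, rank 104). For both genes replicate 5 was the highest library and replicate 4 the lowest, as it was for Dcn. Bgn, biglycan, stood at 14.38 ± 0.0524, Fmod, fibromodulin, at 13.001 ± 0.124, Ogn, mimecan, at 12.01 ± 0.153 and Prelp at 11.96 ± 0.0893. Per length Dcn (15.58 and 14.16) lay above Kera (13.49 and 13.49) and Lum (13.08 and 13.08) by median and longest transcript. Chst5 and B3gnt7, enzymes that build and sulfate keratan sulfate, stood at 11.14 ± 0.131 and 10.66 ± 0.118. Angptl7, a secreted factor of the anterior eye, had 14.44, 14.56, 14.83 and 14.65, highest in replicate 4. Cd34 and Mme, surface markers of keratocytes, stood at 9.59 and 10.30, and Ptgds, prostaglandin D synthase, at 8.51.

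Endothelial genes were detected at lower levels. Slc4a11, a transporter of the endothelial pump whose loss clouds the cornea, had values of 13.49, 13.26, 13.29 and 13.28 (13.33 ± 0.106, rank 314), with replicate 1 above the other 3. Aqp1, the water channel of endothelium and keratocytes, had 14.84, 14.83, 14.55 and 14.80 (14.75 ± 0.139, rank 75), with replicate 4 below the other 3. Col8a2 and Col8a1, collagen VIII chains of the endothelial basement membrane, stood at 14.09 ± 0.0355 and 11.65 ± 0.0764. Slc4a4, a bicarbonate cotransporter of the pump, stood at 11.06 ± 0.0980. The neural crest factors Foxc1 and Tfap2b stood at 11.83 and 11.73, Cdh2, N-cadherin, at 8.96, and Foxc2 at 5.47, the lowest of the 15. Among aquaporins the order per length was Aqp5 (16.52 and 16.16 by median and longest transcript), Aqp3 (15.03 and 14.33), a glycerol-permeable channel of basal epithelium, and Aqp1 (13.36 and 13.36), the same on both scales, and Aqp5 gave 67.2% of the aquaporin signal.

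Genes of immune cells held a small share of the signal. Of 15 macrophage genes with an entry 13 were detected, against 59.96% of all protein-coding entries. The list took 0.0435% ± 0.00311 of the linear signal. Csf1r, the receptor that macrophages need for survival, had values of 8.67, 8.76, 8.76 and 8.62, Cd68, a lysosomal protein of macrophages, had 9.02, 9.14, 8.82 and 8.97, and Ptprc, which encodes the CD45 antigen of all white cells, had 6.71, 6.66, 6.89 and 6.71. The C1q chains C1qa, C1qb and C1qc stood at 7.16, 7.29 and 7.26, Mrc1 at 7.87, Cx3cr1 at 7.36 and Ccr2 at 6.65. Itgam, the integrin CD11b of myeloid cells, stood apart from the rest of the list at 13.19 ± 0.120 and gave 77.7% of its signal, so that the other 14 genes took 0.00968% ± 0.000342. Per length it lay at 11.38 and 10.96 by median and longest transcript, against list medians of 7.11 and 6.47, and whether all its reads come from myeloid cells was not tested. Without Itgam the highest member was Lyz2 at 9.13, and 32.8% of its windows are shared with other genes.

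Of 10 genes of antigen presentation and dendritic cells 6 were detected. This is close to the 59.96% of all protein-coding entries, so the count alone is no sign of these cells. The list took 0.00713% ± 0.000367 of the signal. The median level per length of the detected members was 8.05 by the median and 6.87 by the longest transcript. Cd74, the invariant chain, had 10.08, 10.13, 9.92 and 10.03, and the class II genes H2-Aa, H2-Ab1 and H2-Eb1 stood at 8.40, 8.05 and 7.78. For these 4 genes replicate 4 was the lowest library. Cd207, langerin of Langerhans cells, stood at 0.34, Flt3 at 2.70 and Xcr1 at 1.72. None of the 8 lymphocyte genes with an entry reached 5, from Cd4 at 3.60 to Ms4a1 at -0.53. Of 11 mast cell and granulocyte genes with an entry only Cpa3, a mast cell protease, at 7.04 and S100a9, a neutrophil protein, at 6.74 were detected, and Mpo and Retnlg were listed at 0.

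All 11 blood vessel endothelium genes were detected, against 59.96% of all protein-coding entries. They ran from Kdr, a receptor of vascular endothelial growth factor, at 9.99 ± 0.0880 to Esam at 5.54 ± 0.0260. Pecam1 stood at 7.47 and Cdh5, the cadherin of vessel junctions, at 7.05. The list took 0.00753% ± 0.000373 of the signal. Of 7 lymphatic genes 5 were detected, too few genes to set the list apart from the 59.96% of all protein-coding entries. Pdpn, podoplanin, which other cells also make, stood at 11.12 ± 0.146 and gave 86.9% of the list's 0.00923% ± 0.000675, so that the other 6 genes took 0.00121%. Lyve1 and Flt4 stood at 5.81 and 6.74, and Prox1, the lymphatic master factor, at 2.42. Of 17 genes of vessel inhibitors and growth factors with an entry 14 were detected. Serpinf1, an inhibitor known as pigment epithelium-derived factor, stood at 13.42 ± 0.131, Thbs1 and Thbs2, the thrombospondins, at 13.13 ± 0.119 and 13.14 ± 0.0730, and Timp3 at 12.75 ± 0.123. Vegfa, the main growth factor of vessels, stood at 9.76 ± 0.0261, and Flt1, whose soluble form traps it, at 6.28 ± 0.0503. Per length Serpinf1 (13.86 and 12.55) lay above Vegfa (9.95 and 7.97) by median and longest transcript, and Vegfa above Flt1 (5.25 and 3.49).

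Genes of the Schwann cell list were detected and most genes of the sensory neuron list were not. All 10 Schwann cell genes were detected, against 59.96% of all protein-coding entries. Mbp, myelin basic protein, stood at 12.62 ± 0.0276 and gave 43.6% of the list's signal, and Sox10, the glial factor, stood at 5.97. Of 10 sensory neuron genes only Piezo2, a touch channel, was detected, at 11.91 ± 0.0738, and it gave 99.4% of the list's signal. Which cells made the RNAs of these 2 lists was not tested. Trpv1, Trpm8 and Calca, which encode the heat and cold channels and the peptide CGRP of corneal afferents, stood at 2.26, -2.81 and -0.33, and Scn10a was listed at 0. The cell bodies of these nerves lie in the trigeminal ganglion, outside the cornea, and whether this bears on the values was not tested.

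Markers of tissues next to the cornea were read as well, and which cells made these RNAs was not tested. Of 14 lens genes 11 were detected, against 59.96% of all protein-coding entries. Cryaa, alpha-A crystallin, had values of 8.80, 10.11, 9.93 and 8.64, and Crybb2, a beta crystallin, had 8.82, 10.09, 9.95 and 9.05. Both were more than 0.8 log2 units higher in replicates 3 and 4 than in replicates 1 and 5, and the mean deviation of the detected lens genes was -0.28, 0.31, 0.23 and -0.27 in the 4 libraries. Pigment cell genes Pmel, Dct and Tyrp1 stood at 9.85, 8.47 and 7.89, and Tyr, tyrosinase, at 4.496. Gnat1, the transducin of rod photoreceptors, stood at 5.94, with 8 of 12 photoreceptor genes below 5. Skeletal muscle genes were below 5 in 10 of 11 cases, the exception being Tnni2 at 9.79 ± 0.0782. Of 6 adipocyte genes only Car3, a carbonic anhydrase, was detected, at 13.93 ± 0.0942, while Adipoq and Plin1 stood at -3.18 and -2.86. The 6 hemoglobin entries were listed at 0, and 4 of them have 59.4% to 91.0% of their windows in another gene, so they give no measure of blood. Alas2, the 1 detected member of the 7 erythroid genes, took 0.000492% ± 0.0000260 of the linear signal.

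Receptors and enzymes of glucocorticoid action had baseline values of their own. Nr3c1, the glucocorticoid receptor whose gene carries the loxP sites, had 11.07, 11.21, 11.28 and 11.34 (11.22 ± 0.114, rank 2506), and Nr3c2, the mineralocorticoid receptor, 5.80 ± 0.0552. Per length Nr3c1 (10.30 and 8.54 by median and longest transcript) lay more than 5 log2 units above Nr3c2 (4.19 and 3.24) on both scales. Hsd11b1, which regenerates active hormone in tissues, stood at 4.29 ± 0.0407 and Hsd11b2, which inactivates it, at -0.68. The receptor chaperones Hsp90ab1 and Fkbp4 stood at 15.03 ± 0.0227 and 11.77 ± 0.0838. The hormone-responsive genes Sgk1, Tsc22d3, Fkbp5 and Per1 stood at 13.13 ± 0.128, 11.21 ± 0.0927, 9.87 ± 0.220 and 10.66 ± 0.208. Per1, also a clock gene, had 10.50, 10.50, 10.71 and 10.94, highest in replicate 5, and the hour of collection is not given in the sources used here.

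Large families of receptors and proteins made outside the eye were mostly below 5. Of 1125 olfactory receptor entries 1 was detected, Olfr920 at 5.20, and 1045 were listed at 0. Vomeronasal receptors had 1 detected entry of 395, and taste receptors of type 2, keratin-associated proteins and major urinary proteins had 0 detected of 35, 52 and 23. Among 5 light-sensing opsins outside the image-forming retina, Rrh stood at 5.45, just above the detection level, and Opn3, Opn4 and Opn5 at 3.26, 1.58 and 0.56.

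The 4 libraries resembled each other closely. The median SD of detected entries was 0.0657, and the 90th percentile was 0.130. The median absolute difference between a pair of libraries ran from 0.0459 (replicates 1 and 3) to 0.102 (replicates 1 and 4), and the Pearson correlation across entries, which are not independent, from 0.997 to 0.999. SD was smaller at low values (0.0144 at means of 2 to 3), so the small SDs of weakly expressed genes are not a sign of precise measurement. Of 10675 genes with a mean of at least 7, 32 (0.30%) had an SD of at least 0.3. The 15 most variable named genes included the lens genes Cryaa, Crybb2 and Cryba1, the interferon-induced genes Oas2 and Ifi203, the immediate-early gene Egr1, and the iron-binding tear protein Ltf. Oas2 had values of 9.80, 9.15, 9.93 and 9.02, high in replicates 1 and 4. Egr1 had 9.87, 10.25, 9.75 and 9.20 and Ltf 9.66, 9.93, 10.09 and 9.22, and replicate 5 was the lowest library for both, as it was for 16 of the 32.

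Replicate 4 stood farthest from the 4-library mean for 45.7% of detected entries, against 13.99% to 21.9% for the others, and its offset followed transcript length. For genes with a longest transcript of 1 to 2 kb its median deviation was -0.08 log2 units (n = 2111 genes), and for those of 8 kb or more it was 0.05 (n = 742). Under 1 kb it was -0.05, so the change with length was not steady there. By the median transcript the offset was smaller at the short end, -0.03 under 1 kb and -0.01 at 1 to 2 kb, and 0.05 at 8 kb or more. Replicate 1 ran the other way, with medians of 0.05 and -0.04. Replicate 4 was the lowest library for 65.6% of the genes of 1 to 2 kb and the highest for 57.1% of those of 8 kb or more. It was also lowest, by the mean deviation of detected members, for the corneal epithelium list (0.04, 0.04, -0.08 and 0.00 in replicates 1, 3, 4 and 5), the antioxidant list (0.08, 0.07, -0.12 and -0.03), the glycolysis list (0.09, 0.07, -0.11 and -0.04) and the ribosomal protein genes (0.06, 0.05, -0.11 and 0.01). The stromal keratocyte (-0.00, -0.02, 0.00 and 0.03) and corneal endothelium (0.00, -0.03, 0.02 and 0.00) lists moved by 0.03 at most. The part of the length offset in these list deviations was not tested.

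**Figure D5:**
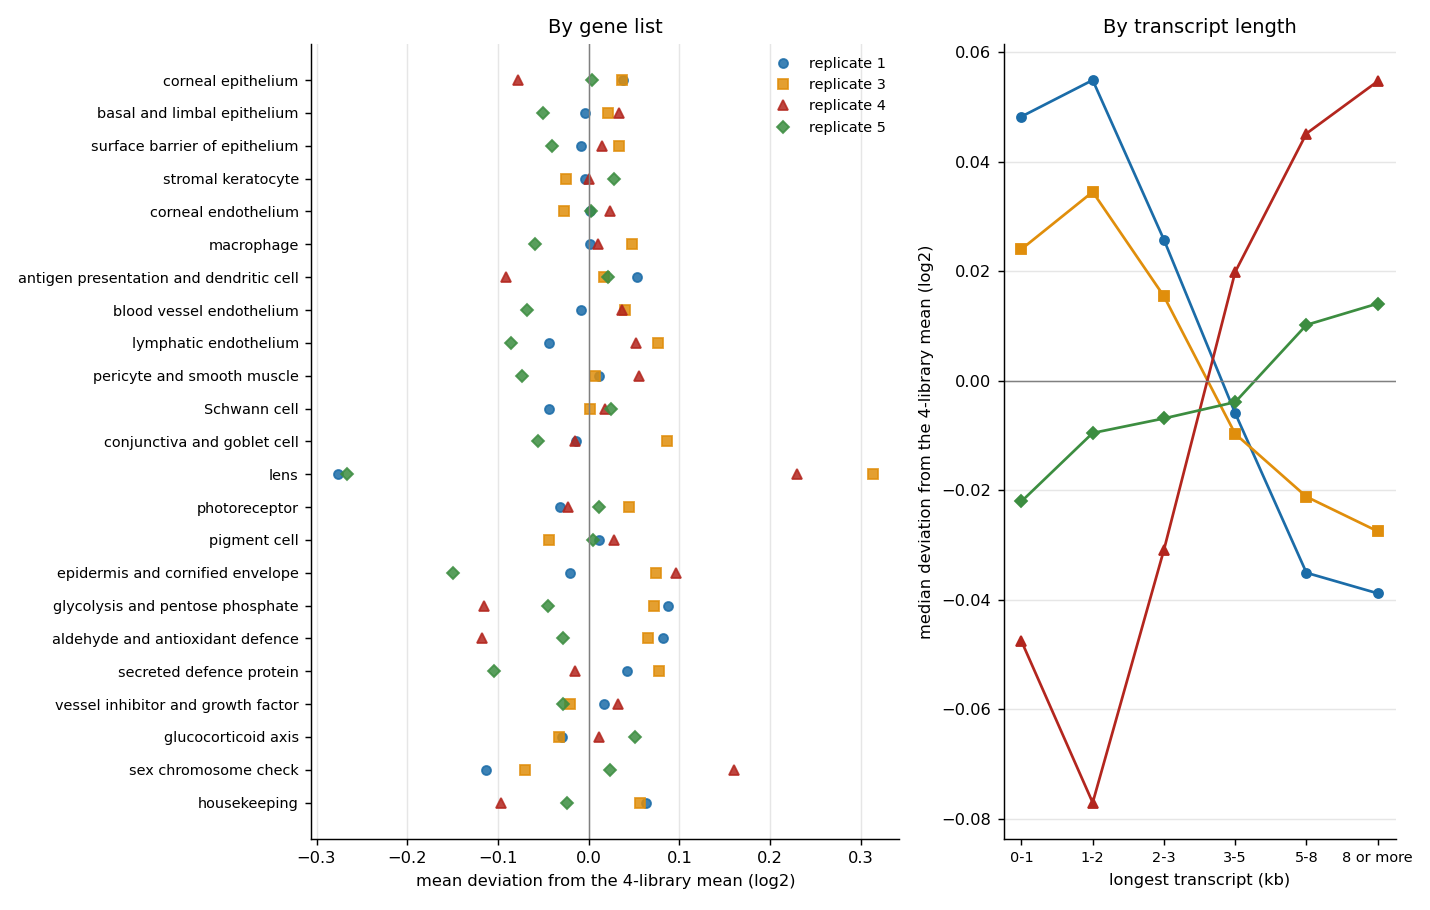
Left, mean deviation of detected members from their 4-library mean in log2 units (horizontal axis) for lists with at least 3 detected members, 1 marker per GRflox library. Right, median deviation (vertical axis, log2 units) of detected genes by the length of their longest transcript in kb (horizontal axis), where replicate 4 lies at -0.05 under 1 kb, -0.08 at 1 to 2 kb and 0.05 at 8 kb or more.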

How the data were processed

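RNA of 8 whole-cornea pools was sequenced as 75 nt pairs, with more than 40000000 reads per sample per the labels, and the 4 GRflox libraries are used here. The authors deposited log2 normalized values, not divided by transcript length as far as stated. Bowtie2, HTSeq and DESeq2 and build mm9 are named in the submitters' processing notes, and the labels' extraction protocol names mm10, so no coordinates of the files' build are printed. No source used here gives the versions or the exact transformation. The table held 0 value columns outside the 8 libraries.

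From these values means, SDs and ranks were computed with Python 3.11.15, numpy 2.4.6 and pandas 2.3.3. Linear signal is 2 to the power of the value, with entries at 0 in all 4 libraries counted as 0. Since the transformation is not known, this signal is a description and not a count of reads. Detection means a mean of at least 5. Transcript lengths and shared 31-base windows, searched on both strands in transcripts of other genes that do not overlap, came from GENCODE transcripts of GRCm38. Length was the median over a gene's transcripts, with the longest as the alternative. For a symbol with several entries the highest was used, and 1228 entries belong to genes at more than 1 locus, of which 1114 were at 0. Chromosomes, gene types and promoters came from RefSeq tables of GRCm38.p6. The share and rank steps were tested on simulated data. No difference between groups was tested, because 1 group has no comparison, and the only test is Dixon's for a library that stands apart among the 4. Intervals for counting error need counts.

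The 30 gene lists (22 of cell types) and the members were chosen with earlier results of these data known. Families were taken by symbol alone. Genes were named by a rule: 7 given markers, the 30 highest entries, the 20 highest per length, the 4 highest of each list per length with its members at 0, and the 15 most variable at a mean of at least 7. Other genes in the text were chosen after their values were seen. A few members of the lists are not reported here by name.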

Additional observations from a re-analysis of the deposited data

Results flagged for a closer look

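A value was marked when the gap from the highest or lowest library to its neighbour, as a share of the whole range of the 4, passed the critical value of Dixon's test, which chance passes in about 1 of 20 groups. Of 344 values checked, 31 (9.01%) passed it. The share over all detected entries was not computed. The values checked overlap, since genes were checked along with the lists and families that hold them. No excess over the rate of the test is read from this count. Many of the marked ranges are narrow, and genes near the bottom of the table differ by small amounts there. No cause was tested.

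Replicate 4 was the marked library in 13 cases. Among the highest genes it was the low one for Aqp1 at 14.55 (14.80 to 14.84 in the other 3), Eef2, a translation elongation factor, at 15.85 (16.003 to 16.019), Eef1a1, another such factor, at 15.71 (15.99 to 16.04), Rpl4 at 14.69 (14.92 to 14.96) and Prdx6 at 13.66 (14.03 to 14.05). It was the high one for Neat1 at 16.39 (16.10 to 16.14), Ppl at 16.28 (16.05 to 16.09), Dsg1a at 14.53 (14.43 to 14.44) and Kdm5d, a histone demethylase of the Y chromosome, at 10.37 (10.18 to 10.20). It was also high for the share of linear signal of the desmosomal cadherin genes at 0.439% (0.385% to 0.394%) and of the integrin genes at 0.277% (0.248% to 0.249%). Abcb5 and Trpm8 both stood at -2.804 there, against -2.812 in the other 3 libraries.

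Replicate 5 was low for Krt14 at 13.36 (13.89 to 13.94), for Tjp3, a tight junction scaffold, at 13.50 (13.58 to 13.60), for Bgn at 14.305 (14.41 in the other 3) and for Flt1 at 6.20 (6.30 to 6.31). It was high for Lor at 1.555 (1.539 to 1.541) and Plin1 at -2.854 (-2.862 in the other 3). Replicate 1 was high for Slc4a11 at 13.49 (13.26 to 13.29), for Adipoq at -3.179 (-3.184) and for the share of signal of pericyte and smooth muscle genes at 0.0637% (0.0600% to 0.0604%). Notch3 gave 83.1% of the signal of that list. Replicate 1 was low for Cd3e, a T cell receptor chain, at 1.451 (1.459 to 1.461), for Des, desmin, at 4.85 (4.93 to 4.95) and for Mbp at 12.58 (12.63 to 12.64). Replicate 3 was high for Gm14446 at 15.07 (14.815 to 14.82), Ly6d at 3.18 (3.10 to 3.11), Esam at 5.58 (5.526 to 5.534), Krtdap at 0.255 (0.241 to 0.242) and for the share of signal of conjunctiva and goblet cell genes at 0.184% (0.145% to 0.146%). Krt13 gave 68.2% of the signal of the conjunctiva and goblet cell list. Replicate 3 was low for Rps27 at 3.325 (3.364 to 3.368).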

How the results depend on the processing

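The count of detected entries, the share of the 100 highest entries, the shares of the 4 main cell-type lists, their median levels per length and the median SD were recomputed under each alternative. Leaving out a library can move a mean of 4 only by less than its SD, so such values are given as ranges and say nothing on stability: 13253 to 13263 detected entries and 27.5% to 28.1% for the 100 highest. The median SD was 0.0498 without replicate 4 and 0.0626 to 0.0686 without one of the others. A threshold of 4 gave 14113 detected entries and one of 6 gave 12357. Dividing the linear signal by transcript length gave 26.8% for the 100 highest entries, 8.38% for the corneal epithelium, 1.97% for the stromal keratocyte, 0.273% for the corneal endothelium and 0.0210% for the macrophage list. With the longest transcript the median levels of these lists, here as means of 4 single-library medians, were 14.05, 11.27, 9.27 and 6.47, with no division by length they were 15.84, 14.30, 11.65 and 7.28, and with all members above 0 the macrophage median was 5.98. The order of the 4 lists was the same under each of these, which does not test how the lists were chosen. No paired analysis was possible because the values come from no test and from 1 group. Depth per library is unknown, so the counting error of low entries cannot be given.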
